A study of Mus musculus with 9 samples.

Results

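Aminoacyl-tRNA synthetases are the enzymes that join each amino acid to its tRNA, and the RNA of their genes was followed in a mouse tumor line and 2 subclones of it. The genes were taken by symbol: every symbol made of the letter of an amino acid and "ars", with or without a trailing digit, together with Farsa, Farsb, Eprs and Tarsl2. The rule gave 38 of the 15768 genes in the table, 21 for cytosolic and 17 for mitochondrial enzymes. Gars and Kars, which each supply both compartments, were counted as cytosolic. Symbols are spelled as in the table, so that Aars or Iars without a digit is the cytosolic gene. SCC2 and SCC1 are lines that were cloned from LLC1 by limiting dilution and passaged 5 to 8 times, and LLC1 is the parental Lewis lung carcinoma line. Libraries of all 3 lines were labelled as untreated wild-type (WT) tumor cells of the lung, grown in DMEM with fetal bovine serum and antibiotics, and RNA was sequenced in 3 libraries per line. The comparisons ask how the RNA of the subclones, which the series follows for their growth as tumors, differs from that of the parental line and between the subclones. Each subclone is 1 clone, and the labels do not state that a line's libraries are separate cultures, so p-values measure only how these libraries spread, which may be technical.

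A synthetase activates its amino acid with ATP and passes it to the matching tRNA, and the enzymes form class I and class II by the fold of the catalytic core. Most amino acids have separate genes for the cytosolic and the mitochondrial enzyme, and mitochondrial enzymes charge the tRNAs that read the mitochondrial genome. In mammals 8 of the cytosolic enzymes are held in a multi-synthetase complex by the scaffold proteins Aimp1, Aimp2 and Eef1e1. When amino acids run short, uncharged tRNA activates the kinase Gcn2, and the transcription factor ATF4 then raises many cytosolic synthetase genes along with genes such as Asns, Chac1 and Trib3. A list of 12 cytosolic synthetases, written from general knowledge as ATF4 targets without a published source at hand, was described beside the other 9 cytosolic genes. The list was chosen with earlier results of these data known, so its counts and medians describe the genes and do not test the grouping.

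Values were FPKM, fragments scaled by transcript length and by the mapped fragments of the library, and each value is relative to the other genes of its library. A ranking of genes by FPKM depends on the lengths used, which were not checked. Recovered whole fragments numbered 17094808 to 19398657 per library. In these bulk samples fewer cells of a kind and less RNA per cell cannot be told apart. Of the mesenchymal markers, Vim averaged 3499 FPKM in SCC2 and 3504 FPKM in SCC1, against 3403 FPKM in LLC1, Fn1 averaged 335 FPKM in SCC2 and 310.4 FPKM in SCC1, against 449 FPKM in LLC1, and Cdh2 was at most 3.32 FPKM in any library. Of the 3 epithelial markers analysed, Krt8 averaged 75.3 FPKM in SCC2 and 155 FPKM in SCC1, against 113 FPKM in LLC1, Krt18 averaged 157 FPKM in SCC2 and 295 FPKM in SCC1, against 223 FPKM in LLC1, and Cdh1 was at most 0.0132 FPKM in any library. Of the 4 lung epithelial markers analysed, Sftpc, Nkx2-1 and Foxj1 were at most 0.0831 FPKM in any library, and Ager was at 0.356 to 1.20 FPKM. The 4 fibroblast markers were at 0.0496 to 5.39 FPKM. The 5 leukocyte and endothelial markers analysed were at most 0.0437 FPKM in any library, and 7 of the 26 markers listed were not analysed here.

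Cytosolic synthetase genes were expressed well above mitochondrial ones in all 3 lines, as seen in the plot of summed FPKM. The mean level over the 9 libraries of the 21 cytosolic genes had a median of 64.6 FPKM and ran between 7.64 FPKM for Tarsl2, a threonyl-tRNA synthetase with a close relative in Tars, and 164 FPKM for Gars, the glycyl-tRNA synthetase. Among the 17 mitochondrial genes the median was 8.19 FPKM, the highest level was 27.9 FPKM for Iars2, and the lowest was 0.684 FPKM for Nars2, which charges mitochondrial asparagine tRNA. The 9 libraries had 156 to 229 fragments of Nars2, which was the only member below the filter of the test. Fragments ordered the members otherwise: Vars had 10943 to 12893 per library and Gars 5865 to 8864, and Pars2, which was tested, had 120 to 185. Summed over the cytosolic genes, the level was 1549.7 ± 6.5 FPKM in SCC2 and 1306 ± 5.44 FPKM in SCC1, against 1267 ± 8.84 FPKM in LLC1 (SD, n = 3 libraries each). The mitochondrial sum was 155 ± 1.93 FPKM in SCC2 and 169 ± 2.02 FPKM in SCC1, against 150.1 ± 1.86 FPKM in LLC1. The cytosolic sum was thus highest in SCC2 and the mitochondrial sum highest in SCC1, and the ratio of the sums was 10.02 ± 0.136 in SCC2 and 7.73 ± 0.0837 in SCC1, against 8.45 ± 0.118 in LLC1. Libraries of a line differed little: the median coefficient of variation of the cytosolic genes was 1.47% in SCC2, 1.49% in SCC1 and 1.84% in LLC1, and that of the lower mitochondrial genes was 4.45% in SCC2, 3.49% in SCC1 and 4.23% in LLC1.

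**Figure D1:**
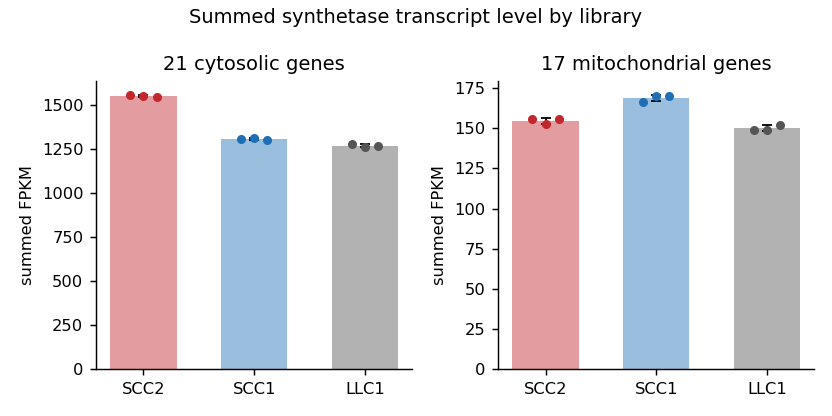
Summed FPKM of the cytosolic synthetase genes (left) and the mitochondrial ones (right) in each library, with points for the 3 libraries of a line, bars for the mean and error bars for the SD. The cytosolic sum is highest in SCC2 at a mean of 1549.7 FPKM, and the mitochondrial sum is highest in SCC1 at a mean of 169 FPKM.

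In SCC2 against LLC1 nearly the whole cytosolic set was higher, led by Iars, Aars, Eprs and Sars, which charge isoleucine, alanine, glutamate with proline, and serine tRNAs. Of the 21 cytosolic genes 18 rose, 2 (Qars and Hars) fell and 1 (Vars) did not pass the test (limma on log2(FPKM + 1), two-sided, Benjamini-Hochberg adjusted p under 0.05). Over all 10519 genes tested, 34.7% were called higher and 32.9% lower, 67.6% in all, so that a call in either direction is common here. The median log2 change of the cytosolic genes was 0.25, against 0.0075 for all genes tested. The libraries of the 2 lines did not overlap for 31 of the 38 members, 20 of 21 cytosolic and 11 of 17 mitochondrial ones, against 70.7% of all genes tested. No member reached a 2-fold change on this scale. These and all later fold changes are on the log2(FPKM + 1) scale, which understates the change of low genes.

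Iars, the cytosolic isoleucyl-tRNA synthetase on chromosome 13, was at 89.3, 91.5 and 90.8 FPKM in SCC2 and 52.3, 51.8 and 51.8 FPKM in SCC1, against 52.3, 52.1 and 49.5 FPKM in LLC1. The SCC2 libraries lay above the 6 others, and those of SCC1 and LLC1 overlapped. Iars rose in SCC2 with a log2 change of 0.81 ± 0.023 (SE, limma adjusted p = 1.59e-10). Aars, the alanyl-tRNA synthetase, which also edits wrongly charged serine and glycine, was at 73.5, 72.5 and 73.1 FPKM in SCC2 and 41, 41.1 and 41.1 FPKM in SCC1, against 48.2, 48 and 48.3 FPKM in LLC1. Its libraries fell into 3 separate ranges, highest in SCC2 and lowest in SCC1, and Aars rose in SCC2 against LLC1 with a log2 change of 0.59 ± 0.018 (SE, limma adjusted p = 2.11e-10).

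Eprs, which carries glutamyl- and prolyl-tRNA synthetase in one chain, was at 87.5, 85.6 and 86 FPKM in SCC2 and 61.5, 62.3 and 60.4 FPKM in SCC1, against 59.5, 59.9 and 59.1 FPKM in LLC1. It was highest in SCC2 without overlap, with a log2 change of 0.53 ± 0.019 (SE, limma adjusted p = 8.37e-10) against LLC1. Sars, the seryl-tRNA synthetase, was at 102, 99.9 and 100.3 FPKM in SCC2 and 67.9, 69.1 and 65.2 FPKM in SCC1, against 71.6, 68.3 and 70.5 FPKM in LLC1. The SCC2 libraries again stood above the others, with a log2 change of 0.51 ± 0.025 (SE, limma adjusted p = 7.98e-09). Gars, the source of both cytosolic and mitochondrial glycyl-tRNA synthetase, was the highest member by FPKM. It was at 193, 199 and 194 FPKM in SCC2 and 149.5, 153 and 149 FPKM in SCC1, against 148, 144 and 143 FPKM in LLC1. The Gars libraries of the 3 lines did not overlap, with SCC2 highest and LLC1 lowest, and Gars rose in SCC2 with a log2 change of 0.42 ± 0.02 (SE, limma adjusted p = 6.75e-09).

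**Figure D2:**
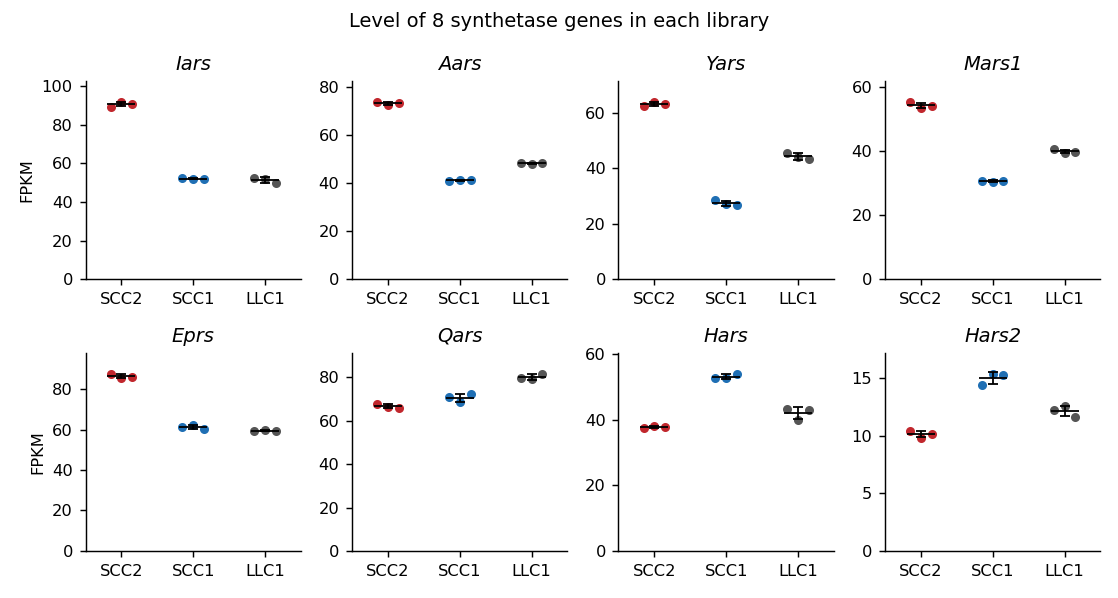
FPKM of 8 synthetase genes in each library, with points for the 3 libraries of SCC2, SCC1 and LLC1 and lines for mean and SD. Iars and Eprs are high in SCC2 alone, Aars, Yars and Mars1 are highest in SCC2 and lowest in SCC1, Qars is highest in LLC1, and Hars and Hars2 are highest in SCC1 and lowest in SCC2.

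The promoters of members that lead this comparison are shown because ATF4 is known to bind elements with the letters TGATGNAA, where N is any base. The windows were 300 bases long, 250 before and 50 after the start site, from RefSeq on GRCm38.p6, and they were searched for TGATGNAA on both strands. The windows of Aars and Eprs lie inside the annotated genes, which begin at 111027778 and 185361417 in that order. Which start sites these lines use was not checked. Each window is printed 5′ to 3′ on the plus strand, which is the gene's own strand for these 5 genes, and capitals mark a match as it reads on that strand, so that the letters may be the reverse complement of the motif. The windows shown are those of Iars at chr13:49681880-49682179, Aars at chr8:111033592-111033891, Yars at chr4:129189653-129189952 and Gars at chr6:55037751-55038050, the 4 members with a match and the greatest change, and of Eprs at chr1:185362794-185363093, the member without a match and with the greatest change.
Iars: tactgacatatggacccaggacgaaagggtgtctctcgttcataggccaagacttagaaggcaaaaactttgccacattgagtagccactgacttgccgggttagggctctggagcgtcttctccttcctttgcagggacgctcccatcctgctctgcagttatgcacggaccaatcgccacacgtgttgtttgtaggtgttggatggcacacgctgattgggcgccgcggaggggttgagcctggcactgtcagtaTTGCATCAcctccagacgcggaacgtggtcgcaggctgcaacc
Aars: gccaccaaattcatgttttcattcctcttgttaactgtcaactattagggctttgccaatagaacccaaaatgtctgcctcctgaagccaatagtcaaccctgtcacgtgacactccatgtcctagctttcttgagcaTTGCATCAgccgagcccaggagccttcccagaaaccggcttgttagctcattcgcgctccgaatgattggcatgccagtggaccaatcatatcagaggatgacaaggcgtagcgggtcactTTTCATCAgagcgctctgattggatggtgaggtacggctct
Yars: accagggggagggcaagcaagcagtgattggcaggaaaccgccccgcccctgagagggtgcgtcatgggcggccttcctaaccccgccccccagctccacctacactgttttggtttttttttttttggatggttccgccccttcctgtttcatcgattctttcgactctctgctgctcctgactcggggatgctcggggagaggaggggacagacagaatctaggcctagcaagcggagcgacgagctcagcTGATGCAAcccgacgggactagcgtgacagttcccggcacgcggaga
Gars: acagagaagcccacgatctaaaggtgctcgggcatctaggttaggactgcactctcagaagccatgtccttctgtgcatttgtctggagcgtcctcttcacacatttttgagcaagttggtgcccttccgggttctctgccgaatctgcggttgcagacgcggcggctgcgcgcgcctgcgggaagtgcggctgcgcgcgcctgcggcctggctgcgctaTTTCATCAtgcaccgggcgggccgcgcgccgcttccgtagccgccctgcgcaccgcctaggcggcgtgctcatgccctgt
Eprs: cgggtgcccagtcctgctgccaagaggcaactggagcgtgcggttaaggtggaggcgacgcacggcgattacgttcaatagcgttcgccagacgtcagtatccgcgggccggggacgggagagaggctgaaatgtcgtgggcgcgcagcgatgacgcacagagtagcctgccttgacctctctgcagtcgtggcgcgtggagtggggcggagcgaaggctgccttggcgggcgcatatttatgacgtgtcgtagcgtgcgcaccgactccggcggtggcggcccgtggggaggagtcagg
In Iars the match TGATGCAA begins 7 bases after the start site and reads on the opposite strand. Aars has 2 matches on the opposite strand that do not overlap each other, TGATGCAA 112 bases before and TGATGAAA 9 bases after the start site. Yars has TGATGCAA on its own strand 3 bases after the start site, Gars has TGATGAAA on the opposite strand 30 bases before it, and Tars, the threonyl-tRNA synthetase, has TGATGCAA on the opposite strand 15 bases before it.

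Of the 38 members 28 had a promoter window, and 5 of these held a match: 5 of 14 cytosolic genes (35.7%) and 0 of 14 mitochondrial ones. Over all genes with a window, 1219 of 27025 (4.51%) held a match. All 5 genes with a match, Iars, Aars, Yars, Gars and Tars, were among the 8 genes of the ATF4 list with a window (62.5%), and 0 of the 6 other cytosolic genes held it. The 5 genes with a match had a median log2 change in SCC2 against LLC1 of 0.50 and all 5 rose, and the 9 cytosolic genes with a window and no match had a median of 0.24, with 8 higher and 1 lower. Among all genes tested in that comparison, 34.7% were called higher and 32.9% lower. A match describes letters in a window and is no evidence of binding. The promoters of Cars, Hars, Hars2, Lars, Nars, Pars2, Rars, Vars and Wars were not used here.

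All 12 genes of the ATF4 list rose in SCC2 against LLC1, with a median log2 change of 0.45 and a range of 0.19 to 0.81, and the count was also 12 higher after the median log2 change of each gene's chromosome was removed. The other members of that list rose as well: Yars, the tyrosyl-tRNA synthetase, by 0.50, Cars, for cysteine, by 0.46, Mars1, the methionyl-tRNA synthetase that also charges the initiator tRNA, by 0.43, Wars, for tryptophan, by 0.35, Tars by 0.25, Lars, for leucine and a sensor of it, by 0.24, and Nars, for asparagine, by 0.19. Among the other 9 cytosolic genes 6 rose and 2 fell, with a median of 0.14. Those that rose were Farsb and Farsa, the subunits of the phenylalanyl enzyme, Dars for aspartate, Rars for arginine, Tarsl2 for threonine and Kars for lysine. Their log2 changes were 0.32 for Farsb, 0.14 for Farsa, 0.24 for Dars, 0.18 for Rars, 0.18 for Tarsl2 and 0.047 for Kars. Among all 10519 genes tested, 34.7% were called higher and 32.9% lower. Removal of chromosome medians took the genes called in either direction from 7112 to 6195.

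Kars, at 103, 105 and 105 FPKM in SCC2 and 120.3, 120.4 and 119 FPKM in SCC1, against 103, 101 and 100.4 FPKM in LLC1, was the weakest of these calls in SCC2, with a log2 change of 0.047 ± 0.018 (SE, limma adjusted p = 0.0323). The SCC2 and LLC1 ranges of Kars lay close together without overlap, and the call was lost under 10 of 20 alternative settings, among them without LLC1 replicate 2 or 3 or SCC2 replicate 2 or 3 (limma adjusted p between 0.0837 and 0.0931), so it counts as uncertain. Tarsl2 was at 7.68, 7.65 and 7.01 FPKM in SCC2 and 9.35, 8.64 and 8.99 FPKM in SCC1, against 6.55, 6.59 and 6.28 FPKM in LLC1, lowest in LLC1 and highest in SCC1, and near-identical stretches shared with Tars were not examined. Rars, an arginyl-tRNA synthetase of the complex, was at 65.6, 64.8 and 66.4 FPKM in SCC2 and 71.8, 74.6 and 71.7 FPKM in SCC1, against 59.8, 56.7 and 57.4 FPKM in LLC1, and its 3 ranges stood apart in the same order. Farsa, the alpha subunit of the phenylalanyl enzyme, was at 38.8, 38.5 and 36.6 FPKM in SCC2 and 39.8, 40.4 and 43.6 FPKM in SCC1, against 32.7, 34.7 and 35.3 FPKM in LLC1, with LLC1 below both subclones. The call of Farsa in SCC2 against LLC1 was lost with chromosome medians removed (log2 change 0.052, limma adjusted p = 0.253).

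The 2 cytosolic genes that fell in SCC2 were Qars and Hars. Qars, the glutaminyl-tRNA synthetase, was at 67.9, 66.6 and 66 FPKM in SCC2 and 70.8, 68.8 and 72.2 FPKM in SCC1, against 79.5, 79.2 and 81.6 FPKM in LLC1. Every subclone library was below every LLC1 library, with a log2 change of -0.26 ± 0.023 (SE, limma adjusted p = 1.41e-06). Hars, the histidyl-tRNA synthetase on chromosome 18, was at 37.4, 38 and 37.9 FPKM in SCC2 and 52.8, 52.6 and 54 FPKM in SCC1, against 43.4, 39.9 and 43 FPKM in LLC1. SCC1 was highest and SCC2 lowest without overlap, and Hars fell in SCC2 with a log2 change of -0.15 ± 0.03 (SE, limma adjusted p = 0.000723). Vars, for valine, averaged 76 ± 1.59 FPKM in SCC2 and 75.4 ± 2.22 FPKM in LLC1 and did not pass the test.

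**Figure D3:**
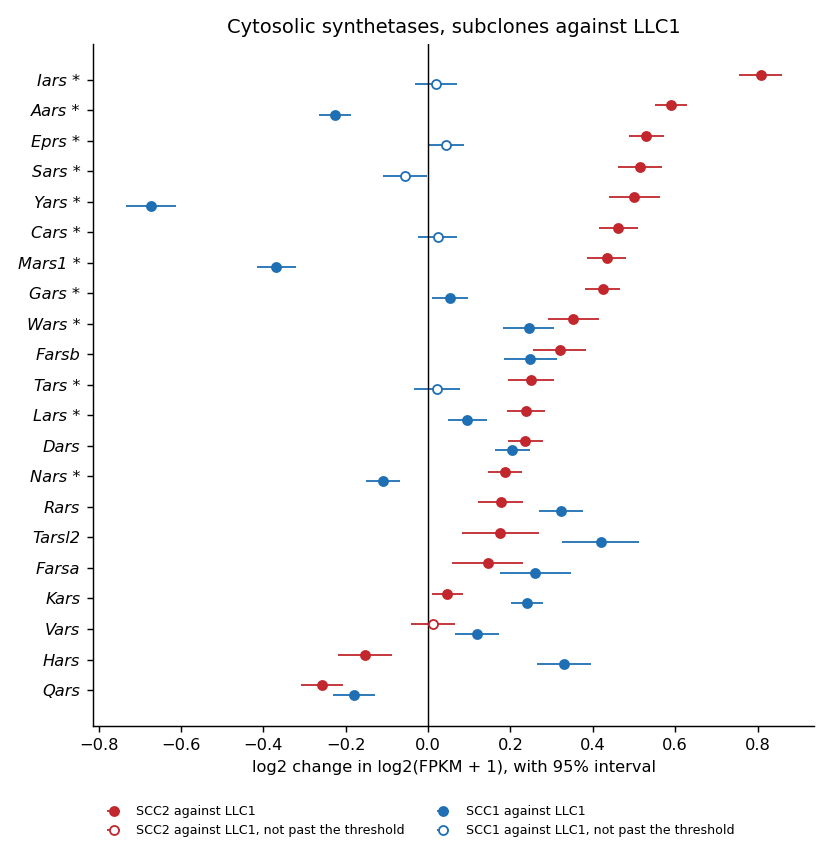
Log2 change of the 21 cytosolic synthetase genes in log2(FPKM + 1), SCC2 against LLC1 in red and SCC1 against LLC1 in blue, with 95% intervals of the limma fit; filled points passed the threshold, open points did not, and an asterisk marks the ATF4 list. All 12 genes with an asterisk are right of 0 in SCC2, and Yars, Mars1, Aars, Qars and Nars are the filled points left of 0 in SCC1.

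Other groupings of the cytosolic genes cut across this pattern. In SCC2 against LLC1 7 of the 8 genes of the multi-synthetase complex rose and Qars fell, with a median log2 change of 0.24, and of the 13 outside the complex 11 rose and 1 fell, with a median of 0.32. Of the 9 class I genes 7 rose and 1 fell, and of the 11 class II genes 10 rose and 1 fell (8 higher and 0 lower with chromosome medians removed); Eprs, which holds a domain of each class, was left out of this split. The 3 scaffold genes of the complex rose too. Beside these counts, 34.7% of all genes tested were called higher and 32.9% lower in SCC2, 67.6% in either direction. Eef1e1, which holds the complex's methionyl enzyme, averaged 44.3 ± 1.31 FPKM in SCC2 and 29.7 ± 1.24 FPKM in LLC1, with a log2 change of 0.56 ± 0.032 (SE, limma adjusted p = 3.36e-08).

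The mitochondrial genes were mixed in SCC2 against LLC1: 7 of 16 tested rose, 4 fell and 5 did not pass the test, with a median log2 change of 0.073. Over all genes tested 34.7% were called higher and 32.9% lower, 67.6% in all, so the mitochondrial count is near that share. The mitochondrial genes that rose included Cars2, Yars2, Iars2, Fars2, Rars2 and Wars2, and the 4 that fell were Aars2, Lars2, Hars2 and Vars2. Cars2, for cysteine, was at 12.1, 11.3 and 11.6 FPKM in SCC2 and 10.5, 10.6 and 11 FPKM in SCC1, against 8.68, 9.41 and 9.51 FPKM in LLC1. LLC1 was lowest without overlap, with a log2 change of 0.31 ± 0.041 (SE, limma adjusted p = 3.23e-05). Yars2, for tyrosine, was at 18.6, 18.1 and 18.8 FPKM in SCC2 and 16.2, 15.4 and 16.1 FPKM in SCC1, against 16.3, 14.3 and 16.6 FPKM in LLC1. Only the SCC2 libraries stood above the rest, with a log2 change of 0.22 ± 0.048 (SE, limma adjusted p = 0.00145). Tars2, Mars2, Sars2, Pars2 and Ears2, for threonine, methionine, serine, proline and glutamate, did not pass, with log2 changes of 0.031 for Tars2, 0.087 for Mars2, 0.059 for Sars2, 0.0096 for Pars2 and -0.073 for Ears2.

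Aars2, the mitochondrial alanyl enzyme on chromosome 17, was at 5.98, 5.46 and 5.32 FPKM in SCC2 and 8.13, 8.23 and 8.25 FPKM in SCC1, against 7.94, 8.29 and 7.82 FPKM in LLC1. Its SCC2 libraries were below all others, with a log2 change of -0.45 ± 0.042 (SE, limma adjusted p = 1.87e-06) against LLC1, while cytosolic Aars rose in the same libraries. Lars2, for leucine, was at 13, 10.7 and 11.7 FPKM in SCC2 and 13.8, 14.9 and 14.7 FPKM in SCC1, against 13.1, 14.9 and 15.3 FPKM in LLC1, with SCC2 again lowest and a log2 change of -0.27 ± 0.067 (SE, limma adjusted p = 0.00341). With chromosome medians removed, Aars2 stood at -0.33 (limma adjusted p = 4.34e-05) and Lars2 at -0.11 (limma adjusted p = 0.194). In that setting 3 mitochondrial genes were higher (Cars2, Iars2 and Rars2) and 2 lower (Aars2 and Fars2), and Yars2 stood at 0.011 (limma adjusted p = 0.861). Across all genes tested, 6195 of 10519 were called there in either direction.

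**Figure D4:**
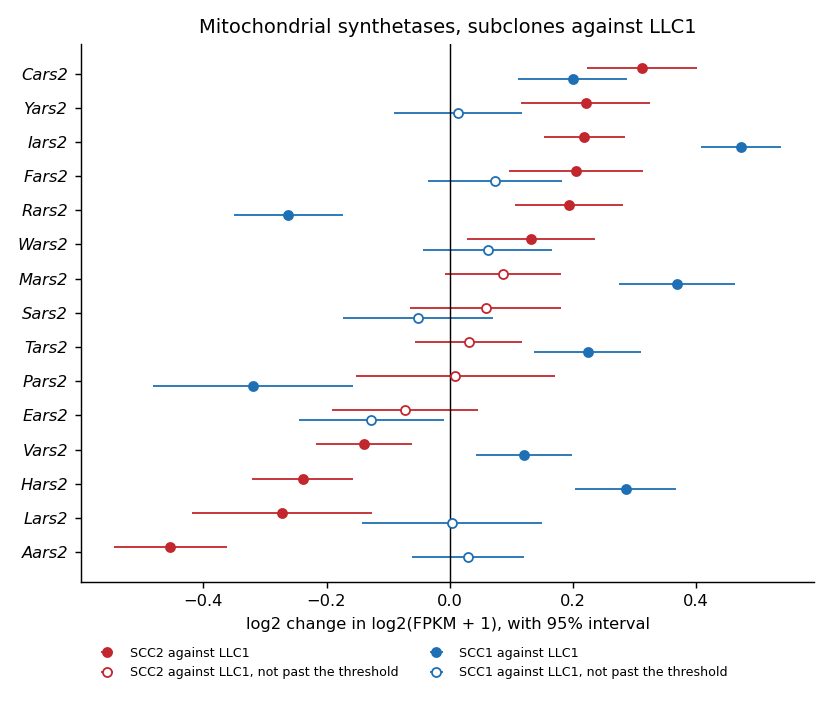
Log2 change of mitochondrial synthetase genes, all tested but 1, in log2(FPKM + 1), SCC2 against LLC1 in red and SCC1 against LLC1 in blue, with 95% intervals of the limma fit; filled points passed the threshold and open points did not. Aars2 is lowest in SCC2 at -0.45, Iars2 is highest in SCC1 at 0.47, and Hars2, Vars2 and Rars2 are those with filled points on opposite sides of 0 in the subclones.

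In SCC1 against LLC1 the cytosolic genes split: 11 of 21 rose, 5 fell and 5 did not pass the test, against 39.2% of all genes tested called higher, 30.9% lower and 70.1% in either direction. The 5 that fell were Yars, Mars1, Aars, Qars and Nars, and the median log2 change of all 21 was 0.053, against 0.033 over all genes tested. After removal of chromosome medians, 9 were called higher and 9 lower, and the median was -0.0051. That setting called 6390 of all 10519 genes tested in either direction, against 7376 before removal. The libraries did not overlap for 28 of the 38 members, 17 of 21 cytosolic and 11 of 17 mitochondrial ones, against 72.3% of genes tested. The LLC1 libraries are the same as in the comparison with SCC2, so the 2 comparisons share their baseline.

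Yars was at 62.3, 63.7 and 63.3 FPKM in SCC2 and 28.4, 27.2 and 26.7 FPKM in SCC1, against 45.6, 44.1 and 43.2 FPKM in LLC1. The 3 lines stood far apart, SCC2 highest and SCC1 lowest, and Yars fell in SCC1 against LLC1 with a log2 change of -0.67 ± 0.028 (SE, limma adjusted p = 2.02e-09). Mars1 was at 55.2, 53.5 and 53.9 FPKM in SCC2 and 30.8, 30.4 and 30.7 FPKM in SCC1, against 40.5, 39.5 and 39.6 FPKM in LLC1, in the same order without overlap, with a log2 change of -0.37 ± 0.022 (SE, limma adjusted p = 3.36e-08) in SCC1. Aars fell in SCC1 with a log2 change of -0.23 ± 0.018 (SE, limma adjusted p = 4.53e-07), and Qars with a log2 change of -0.18 ± 0.023 (SE, limma adjusted p = 2.45e-05). Nars came next after Gars by FPKM. It was at 171, 166 and 164 FPKM in SCC2 and 136, 135 and 136 FPKM in SCC1, against 145, 149 and 146 FPKM in LLC1. Its libraries were highest in SCC2 and lowest in SCC1, with a log2 change of 0.19 ± 0.019 (SE, limma adjusted p = 4.55e-06) in SCC2 and a log2 change of -0.11 ± 0.019 (SE, limma adjusted p = 0.000308) in SCC1, each against LLC1.

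The 4 cytosolic genes that rose most in SCC1 lay outside the ATF4 list. Tarsl2 rose with a log2 change of 0.42 ± 0.043 (SE, limma adjusted p = 3.67e-06), Hars with a log2 change of 0.33 ± 0.03 (SE, limma adjusted p = 1.38e-06), Rars with a log2 change of 0.32 ± 0.025 (SE, limma adjusted p = 3.44e-07) and Farsa with a log2 change of 0.26 ± 0.039 (SE, limma adjusted p = 9.15e-05). Farsb, Wars, Kars, Dars, Vars, Lars and Gars rose by 0.25, 0.24, 0.24, 0.20, 0.12, 0.10 and 0.053 on the log2 scale, in that order. Of the 12 genes of the ATF4 list 3 (Wars, Lars and Gars) rose and 4 (Yars, Mars1, Aars and Nars) fell in SCC1, with a median log2 change of 0.021, or -0.030 after quantile normalization. Iars, Cars, Tars, Eprs and Sars did not pass the test, with log2 changes of 0.019 for Iars, 0.024 for Cars, 0.022 for Tars, 0.044 for Eprs and -0.056 for Sars. Of the other 9 cytosolic genes 8 rose and 1 (Qars) fell, with a median of 0.25. With chromosome medians removed, the ATF4 list had 1 higher and 9 lower, with a median of -0.11, and the other 9 had 8 higher and 0 lower. In that setting Lars stood at -0.14 and Gars at -0.093 in SCC1, both then called lower. The call of Gars in SCC1 was lost or turned under 7 of 20 settings, among them without LLC1 replicate 2 or 3 or SCC1 replicate 2 (limma adjusted p between 0.0966 and 0.119). Among all genes tested in SCC1 against LLC1, 39.2% were called higher and 30.9% lower. With chromosome medians removed, 6390 of 10519 were called in either direction.

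By other groupings, SCC1 had 4 higher and 2 lower of the 8 complex genes, 4 higher and 3 lower of the 9 class I genes, and 7 higher and 2 lower of the 11 class II genes, each against LLC1; the class II counts were 6 higher and 5 lower with chromosome medians removed. The 5 genes with a promoter match had 1 higher and 2 lower, with a median of 0.019 (-0.030 after quantile normalization, and -0.14 with 0 higher and 5 lower after chromosome medians were removed), and the 9 cytosolic genes with a window and no match had 5 higher and 2 lower, with a median of 0.20. The scaffold genes Aimp1, Aimp2 and Eef1e1 all rose in SCC1, by 0.20 for Aimp1, 0.15 for Aimp2 and 0.22 for Eef1e1 on the log2 scale, and 2 of the 3 with chromosome medians removed. Beside these counts, 39.2% of all genes tested were called higher and 30.9% lower in SCC1, 70.1% in either direction. With chromosome medians removed, 6390 of 10519 were called.

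Among the 16 mitochondrial genes tested in SCC1 against LLC1, 7 rose, 2 fell and 7 did not pass the test, with a median log2 change of 0.068. Over all genes tested 39.2% were called higher and 30.9% lower, 70.1% in either direction. The mitochondrial genes that rose included Iars2, Mars2, Hars2, Tars2, Cars2 and Vars2. Iars2, for isoleucine and the most abundant mitochondrial member, was at 27, 27.5 and 27.8 FPKM in SCC2 and 32.1, 33.9 and 32.8 FPKM in SCC1, against 23.9, 23.8 and 22.6 FPKM in LLC1. The lines did not overlap, with SCC1 highest, and Iars2 rose with a log2 change of 0.47 ± 0.03 (SE, limma adjusted p = 6.53e-08) in SCC1 and with a log2 change of 0.22 ± 0.03 (SE, limma adjusted p = 4.68e-05) in SCC2. Mars2, for methionine, was at 7.52, 7.53 and 6.88 FPKM in SCC2 and 9.08, 8.81 and 9.43 FPKM in SCC1, against 6.78, 7.1 and 6.59 FPKM in LLC1, with SCC1 above both other lines and a log2 change of 0.37 ± 0.043 (SE, limma adjusted p = 1.15e-05) against LLC1.

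The 2 mitochondrial genes that fell in SCC1 both lie on chromosome 4. Pars2, for proline, was at 3.23, 2.96 and 3.13 FPKM in SCC2 and 2.01, 2.42 and 2.4 FPKM in SCC1, against 3.22, 2.65 and 3.42 FPKM in LLC1, with SCC1 lowest and a log2 change of -0.32 ± 0.074 (SE, limma adjusted p = 0.00226). Rars2, for arginine, was at 9.36, 9.28 and 10.2 FPKM in SCC2 and 6.89, 6.44 and 6.84 FPKM in SCC1, against 8.24, 8.15 and 8.36 FPKM in LLC1. SCC2 was highest and SCC1 lowest, with a log2 change of -0.26 ± 0.04 (SE, limma adjusted p = 0.000111) in SCC1 and a log2 change of 0.19 ± 0.04 (SE, limma adjusted p = 0.00108) in SCC2. The mitochondrial genes that did not pass in SCC1 were Aars2, Ears2, Fars2, Lars2, Sars2, Wars2 and Yars2, with log2 changes between -0.13 for Ears2 and 0.074 for Fars2. With chromosome medians removed, 6 mitochondrial genes were higher in SCC1 and 1, Ears2, was lower. Across all genes tested, 6390 of 10519 were then called in either direction.

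Between the subclones, 13 of 21 cytosolic genes were higher in SCC2 than in SCC1, 7 were lower and 1, Dars, did not pass the test, with a median log2 change of 0.14, against -0.0029 over all genes tested. Of all genes tested 37% were called higher, 39.4% lower and 76.3% in either direction. The libraries of SCC2 and SCC1 did not overlap for 34 of 38 members, all 21 cytosolic and 13 of 17 mitochondrial ones, against 77.9% of genes tested. Yars had a log2 change of 1.17 ± 0.028 (SE, limma adjusted p = 1.11e-11), the only member to reach 2-fold in any comparison. Aars had a log2 change of 0.82 ± 0.018 (SE, limma adjusted p = 6.16e-12), Mars1 a log2 change of 0.80 ± 0.022 (SE, limma adjusted p = 2.78e-11) and Iars a log2 change of 0.79 ± 0.023 (SE, limma adjusted p = 6.06e-11). The lower genes were led by Hars with a log2 change of -0.48 ± 0.03 (SE, limma adjusted p = 2.99e-08), then Tarsl2 at -0.24 (limma adjusted p = 0.000243), Kars at -0.19 (limma adjusted p = 9.09e-07) and Rars at -0.15 (limma adjusted p = 0.000188). Rars turned to 0.069 (limma adjusted p = 0.0282) and Hars stood at -0.023 (limma adjusted p = 0.538) with chromosome medians removed.

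All 12 genes of the ATF4 list were higher in SCC2 than in SCC1, with a median log2 change of 0.46, and also with chromosome medians removed, when the median was 0.57. The other 9 cytosolic genes had 1 higher (Farsb) and 7 lower, with a median of -0.12, or 2 higher and 4 lower with chromosome medians removed. The call of Farsb was lost under 11 of 20 settings, among them the removal of any LLC1 library (limma adjusted p between 0.0504 and 0.0572). Complex genes had 4 higher and 3 lower of 8. The 5 genes with a promoter match were all higher in SCC2, with a median of 0.79, and of the 9 cytosolic genes with a window and no match 4 were higher and 4 lower. Among all genes tested, 37% were called higher and 39.4% lower, 76.3% in either direction. With chromosome medians removed, 7049 of 10519 were called in either direction.

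The mitochondrial genes had 5 higher and 7 lower of 16 tested in SCC2 against SCC1, with a median log2 change of 0.03. Over all genes tested 37% were called higher and 39.4% lower, 76.3% in either direction, so the mitochondrial count is near that share. Rars2 had a log2 change of 0.46 ± 0.04 (SE, limma adjusted p = 6.71e-07) and Pars2 a log2 change of 0.33 ± 0.074 (SE, limma adjusted p = 0.00155), and Yars2, Cars2 and Fars2 were the other higher genes. The call of Cars2 was lost without SCC1 replicate 1 or 2 or SCC2 replicate 1 (limma adjusted p between 0.0652 and 0.0988), and that of Fars2 without SCC1 replicate 2 or 3 or SCC2 replicate 2 or 3 (limma adjusted p between 0.0504 and 0.126). Hars2, for histidine, was at 10.4, 9.82 and 10.2 FPKM in SCC2 and 14.4, 15.3 and 15.3 FPKM in SCC1, against 12.2, 12.5 and 11.6 FPKM in LLC1. SCC1 was highest and SCC2 lowest without overlap, and Hars2 had a log2 change of -0.53 ± 0.037 (SE, limma adjusted p = 1.02e-07). Aars2 was also lower, with a log2 change of -0.48 ± 0.042 (SE, limma adjusted p = 5.72e-07). With chromosome medians removed, Rars2 was the only mitochondrial gene called higher, and Hars2 stood at -0.066 (limma adjusted p = 0.137). Across all genes tested, 7049 of 10519 were then called in either direction. Vars2, for valine, was at 17.1, 17.2 and 17.1 FPKM in SCC2 and 21.2, 20.3 and 20.8 FPKM in SCC1, against 19, 18 and 20 FPKM in LLC1. It was lowest in SCC2 and highest in SCC1, with log2 changes against LLC1 of -0.14 in SCC2 (limma adjusted p = 0.00427) and 0.12 in SCC1 (limma adjusted p = 0.00937).

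Set side by side against the shared LLC1 libraries, Aars, Yars, Mars1, Nars and Rars2 were higher in SCC2 and lower in SCC1, and Hars, Hars2 and Vars2 were lower in SCC2 and higher in SCC1. Qars was the only member lower in both subclones. Farsa, Farsb, Lars, Wars, Dars, Tarsl2, Kars, Gars, Rars, Cars2 and Iars2 were among the members higher in both. The test of the difference between the subclones is the comparison of SCC2 with SCC1 above, in which all 8 of the genes with opposite directions passed. With chromosome medians removed, Aars, Yars, Mars1 and Nars were still called higher in SCC2 and lower in SCC1, whereas Rars2 was called in SCC2, Hars in SCC1, and Hars2 and Vars2 in neither. In that setting Iars, Lars, Gars, Sars and Tars were also called higher in SCC2 and lower in SCC1. Farsa and Kars, higher in both above, were then called in SCC1 only.

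Median changes of whole chromosomes moved with some members, as the plot of genes against their chromosomes shows, and their part in the results was not tested beyond removing those medians. On chromosome 18 the median log2 change was -0.22 in SCC2 and 0.22 in SCC1 against LLC1, close to the changes of Hars and Hars2 and unlike those of Lars and Nars, which lie on the same chromosome. With the chromosome medians removed Hars stood at 0.075 in SCC2 (limma adjusted p = 0.0594) and 0.10 in SCC1 (limma adjusted p = 0.0183). Hars and Hars2 lie head to head on opposite strands and overlap by 4 bases in the annotation, and the use of strand in counting is not stated, so the split of reads between them at that end is uncertain. Chromosome 4, with Yars, Pars2 and Rars2, had a median of -0.04 in SCC2 and -0.33 in SCC1. After removal Yars stood at 0.54 in SCC2 (limma adjusted p = 1.94e-08) and -0.34 in SCC1 (limma adjusted p = 7.35e-07), whereas Pars2 stood at 0.011 and Rars2 at 0.068 in SCC1.

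Chromosome 13, with Iars and Fars2, had a median log2 change of 0.35 in SCC2 against LLC1, and Iars stood at 0.45 after its removal (limma adjusted p = 1.47e-08). Chromosome 9, with Qars and Lars2, had medians of -0.16 in SCC2 and -0.19 in SCC1, and Qars then stood at -0.092 in SCC2 (limma adjusted p = 0.00684) and 0.0066 in SCC1 (limma adjusted p = 0.828). Mars1, on chromosome 10 with a median of -0.19 in SCC1, stood at -0.18 there after removal (limma adjusted p = 3.19e-05). Aars, Eprs and Sars, on chromosomes with medians of 0.11, 0.14 and 0.05 in SCC2, stood at 0.50, 0.40 and 0.46 in that order. With the medians removed, 17 of 21 cytosolic calls were the same in SCC2 against LLC1 and 15 of 21 in SCC1 against LLC1, and of the 16 mitochondrial calls 9 were the same in SCC2 and 10 in SCC1. The number called among all 10519 genes tested went from 7112 to 6195 in SCC2 and from 7376 to 6390 in SCC1.

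**Figure D5:**
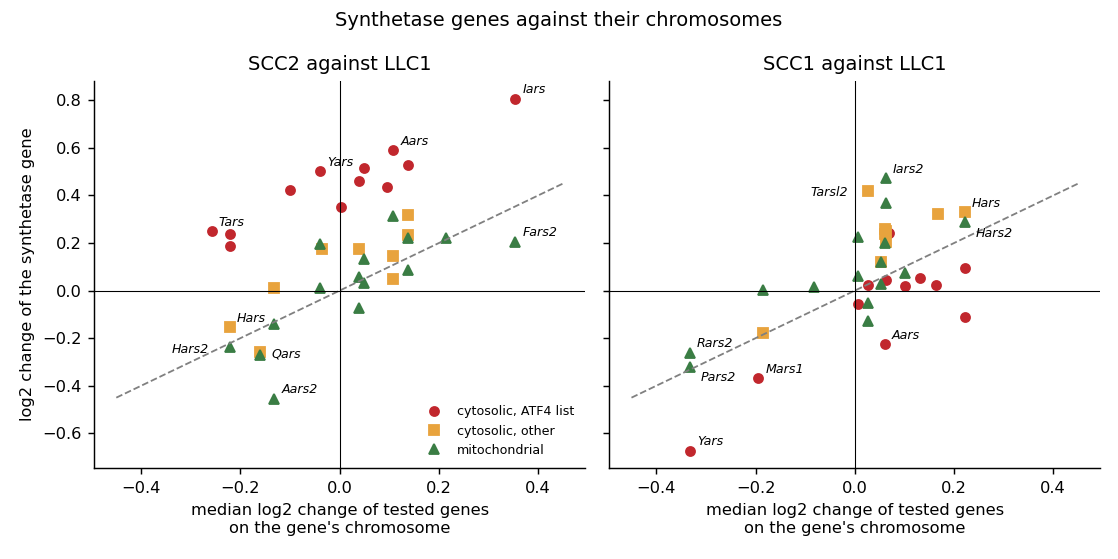
Log2 change of the tested synthetase genes, all but 1 (vertical axis) against the median log2 change of all tested genes on its chromosome (horizontal axis), for SCC2 against LLC1 (left) and SCC1 against LLC1 (right); the dashed line marks equal values. In SCC2 the genes of the ATF4 list (red circles) lie above the line, Hars and Hars2 lie near it in both panels, and Yars lies below it in SCC1.

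Genes that work with the synthetases were read from lists of the same pathway. Of all genes tested, 67.6% were called in SCC2 against LLC1, 70.1% in SCC1 against LLC1 and 76.3% in SCC2 against SCC1. With chromosome medians removed, 6195, 6390 and 7049 of the 10519 genes were called, in that order. The 8 genes of the amino acid response list all rose in SCC2 against LLC1 (median log2 change 0.69), and in SCC1 against LLC1 6 fell and 1, the cystine transporter gene Slc7a11, rose (median -0.20). Once chromosome medians were removed, 8 were higher in SCC2, and in SCC1 3 were higher and 5 lower (median -0.33). Atf4, the transcription factor, averaged 337 ± 8.37 FPKM in SCC2 and 242 ± 1.52 FPKM in SCC1, against 263 ± 5.9 FPKM in LLC1. Asns, which makes asparagine, averaged 174 ± 3.23 FPKM in SCC2 and 80.8 ± 1.08 FPKM in SCC1, against 105 ± 2.37 FPKM in LLC1. Both were therefore highest in SCC2 and lowest in SCC1, the order also seen for Aars, Yars, Mars1 and Nars. Genes outside the ATF4 list had this order too, among them Rars2, and Xpot, Tsen15, Tsen34 and Rtcb of the tRNA maturation and export list. The share of all genes with this order was not counted. Of the 12 genes of the ATF4 list, 3 rose, 4 fell and 5 did not pass the test in SCC1 against LLC1. A shared cause was not tested. Chac1, which breaks down glutathione, had the greatest difference of this list between the subclones, with a log2 change of 1.93 ± 0.05 (SE, limma adjusted p = 2.05e-11), and 7 of the 8 genes were higher in SCC2 than in SCC1 and Slc7a11 was lower.

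In the tRNA maturation and export list, 6 of 11 genes rose and 2 fell in SCC2, and 5 rose and 4 fell in SCC1, each against LLC1. With chromosome medians removed these counts were 6 higher and 1 lower in SCC2, and 3 higher and 4 lower in SCC1. Calls over all genes tested were 67.6% in SCC2 and 70.1% in SCC1, so counts of such short lists do not set them apart. Xpot, the exporter that carries tRNA out of the nucleus, averaged 47 ± 1.23 FPKM in SCC2 and 27 ± 0.355 FPKM in SCC1, against 32.6 ± 0.393 FPKM in LLC1. Xpot was the most changed gene of its list in SCC2, with a log2 change of 0.51 ± 0.025 (SE, limma adjusted p = 8.78e-09), and Elac1, a tRNA 3′ processing enzyme, fell most, with a log2 change of -0.46 ± 0.061 (SE, limma adjusted p = 4.2e-05). Of the 6 editing and recycling genes 2 rose and 1 fell in SCC2, and 4 rose in SCC1 (2 higher and 0 lower in SCC2, and 3 higher and 1 lower in SCC1, with chromosome medians removed). In SCC1 Aarsd1, which clears wrongly charged alanine tRNA, had a log2 change of 0.40 ± 0.039 (SE, limma adjusted p = 2.63e-06). The 4 mitochondrial partners, Gatb, Gatc and Qrsl1 of the complex that makes glutaminyl-tRNA in mitochondria and the formyltransferase gene Mtfmt, had 1 call in all 3 comparisons, Mtfmt in SCC2 against LLC1, with a log2 change of -0.15 ± 0.056 (SE, limma adjusted p = 0.0339). That call was lost with chromosome medians removed, and 1 gene of this list was called lower in SCC2 against SCC1.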

How the data were processed

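RNA was sequenced in 9 libraries, 3 each of SCC2, SCC1 and LLC1. The deposited values were FPKM for 15768 genes, which the authors computed with cufflinks after trimming with Trimmomatic and alignment with hisat2, per the series' design text; the submitters' processing notes name the builds GRCm38 and mm10, and tool versions were not stated. The design text names a stranded TruSeq kit and the labels' protocols a SMARTER kit, so strand use is uncertain. The members and lists were chosen with earlier results of these data known. Genes of at least 1 FPKM in at least 3 libraries (10519) entered a fit of log2(FPKM + 1) in limma 3.58.1 (R 4.3.3; trend and robust options, 1 fit over all lines, two-sided, Benjamini-Hochberg over all genes tested, threshold 0.05). The fit was tested on simulated data. FPKM steps gave whole fragments, within 0.001, for all 12270 genes above 0 in all libraries, or 17094808 to 19398657 per library; these entered an alternative count-based fit (limma-voom). FPKM does not correct for total RNA per cell. Alternatives were 2 smaller pseudocounts, other filters, scalings and fits, a replicate block, chromosome medians removed, and each library left out. Members described in full were, per comparison, the 4 cytosolic and 2 mitochondrial genes called with the greatest change in each direction, those with opposite directions in the subclones, and the highest and lowest by level. All 38 members matched the RefSeq table (15668 of 15768 symbols did), which gave chromosomes. Values of 1 member are not reported here, though counts and sums include it.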

Additional observations from a re-analysis of the deposited data

How the results depend on the processing

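Of 111 member results (37 genes in 3 comparisons), 67 kept their side of the threshold, and their direction where called, under all 20 alternatives. The same held for 4 more under the 19 that could be run for them, since a filter of 5 FPKM left out 12 results. A change of sign in a result called neither before nor after was not counted, and some of the kept results had one. Replicate numbers did not pair the samples (correlations of same-numbered deviations -0.0683 to 0.0890 over 9 pairs); a fit with the replicate block called 17 cytosolic genes higher and 2 lower in SCC2 against LLC1 and lost the calls of Kars in SCC2 against LLC1 (limma adjusted p = 0.0534) and Farsb in SCC2 against SCC1 (0.0664). The count-based limma-voom fit on recovered fragments called 7263 genes in SCC2 against LLC1, 7510 in SCC1 against LLC1 and 8160 in SCC2 against SCC1. With one library left out, cytosolic genes called higher in SCC2 against LLC1 numbered 17 to 18 and lower 2, those in SCC1 against LLC1 10 to 12 and 5 to 6, and those in SCC2 against SCC1 12 to 13 and 6 to 7.

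Removal of chromosome medians, which subtracts each chromosome's own shift, moved most. Counts called lower became 1 cytosolic and 2 mitochondrial in SCC2 against LLC1 (3 mitochondrial higher), 9 cytosolic and 1 mitochondrial in SCC1 against LLC1, and 4 cytosolic in SCC2 against SCC1 (1 mitochondrial higher). Among all 10519 genes tested, 6195, 6390 and 7049 were then called in either direction, in the same order of comparisons. The main fit had called 7112, 7376 and 8031. Among results called before or after removal, log2 changes turned for Fars2 (-0.15), Hars (0.075) and Kars (-0.045) in SCC2 against LLC1. In SCC1 against LLC1 they turned for Gars (-0.093), Iars (-0.077), Lars (-0.14), Pars2 (0.011), Qars (0.0066), Rars2 (0.068) and Tars (-0.14). In SCC2 against SCC1 they turned for Fars2 (-0.13), Rars (0.069), Vars (0.074) and Yars2 (-0.091). Some results called neither before nor after also changed sign and are not listed. Among median log2 changes larger than their SD over the tested line's libraries, that of mitochondrial genes turned in SCC2 against LLC1 (-0.00052). In SCC1 against LLC1 those of cytosolic genes, class I genes and genes outside the complex (-0.0051 each), the complex (-0.0075), the ATF4 list (-0.11) and genes with a promoter match (-0.14) turned. In SCC2 against SCC1 those of mitochondrial genes (-0.072), genes with a window and no match (-0.085), the cytosolic ones of these (-0.037) and the tRNA maturation list (0.042) turned. Smaller medians that changed sign are not listed. Quantile normalization turned the medians of the ATF4 list (-0.030), class I genes (-0.025) and genes with a promoter match (-0.030) in SCC1 against LLC1; the last ran between -0.0060 without LLC1 replicate 3 and 0.026 without LLC1 replicate 2. A filter of 5 FPKM, which tests fewer mitochondrial genes, left 1 lower in SCC1 against LLC1 and 3 higher in SCC2 against SCC1, with medians between the subclones of -0.22 for mitochondrial genes and -0.078 for genes with a window and no match. Beyond these constructions, the cause was not tested. Nars2, the lowest member by FPKM, had at most 229 fragments per library, and Pars2, which was tested, had at most 185. Wars2 lost its call in SCC2 without LLC1 replicate 1 or 3 or SCC2 replicate 2 or 3 (limma adjusted p between 0.0607 and 0.0862). Farsa lost its call in SCC2 against SCC1 without SCC1 replicate 3 or SCC2 replicate 3 (limma adjusted p = 0.0803 and 0.0734).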
